A study of Mus musculus with 7 samples.

Results

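The 10 genes described here are Phgdh, Psat1, Psph, Shmt1, Shmt2, Mthfd1, Mthfd1l, Mthfd2, Aldh1l2, and Pck2. Apart from Pck2, they encode enzymes that make serine from a glycolytic intermediate or handle its carbon on folate. The enzyme of Pck2 makes phosphoenolpyruvate, from which serine can also be made. The 10 genes were taken by symbol from a table of 55367 genes, and all 10 were found in it. All 10 passed the minimum on counts, as did 12623 genes in all. The table holds RNA-seq counts from 7 cultures of CD8+ T cells, sorted from the spleens of Foxp3 YFP/cre mice that the labels call healthy. In 4 cultures the cells received HCME-sEVs, which are small extracellular vesicles of healthy mouse spleen (the control EVs of the labels), and in 3 cultures LME-sEVs, the same material of spleens from mice with Eμ-TCL1 leukemia (the leukemia EVs). All cultures lasted 48 hours, with 100 μg/mL of vesicles by the labels, whereas the methods describe the amount found in each kind of spleen. The Foxp3 YFP/cre allele, which marks regulatory T cells, is shared by both groups. The methods describe CD8+ T-cell culture on anti-CD3 with anti-CD28 and IL2, while the labels name no stimulation. The Eμ-TCL1 transgene drives the TCL1 oncogene in B cells, and whole spleens were the source of the vesicles, which therefore may stem from any spleen cell. Nothing states whether each library came from another mouse or another vesicle preparation, so the p-values measure only the spread between these libraries.

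Serine is made from 3-phosphoglycerate in a short pathway of dehydrogenase, transaminase, and phosphatase. Serine hydroxymethyltransferases then move a carbon of serine to tetrahydrofolate, giving glycine, and the folate cycle carries that carbon through mitochondria as formate and back in the cytosol to purines, thymidylate, and methionine. T cells are known to raise both arms when they are activated, and many of these genes are textbook targets of the transcription factor ATF4, which acts in the response to amino acid shortage.

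The QuantSeq libraries read the 3′ ends of transcripts, and each molecule was counted once by its unique molecular identifier. Totals lay between 3689831 and 5030522 counts. Levels are CPM, counts scaled to a common library size after TMM normalization, and do not depend on gene length, but capture differs between genes, so levels are compared only within a gene. A gene was called at an FDR under 0.05 in edgeR's quasi-likelihood test, adjusted by Benjamini and Hochberg over all 12623 genes, and a differentially expressed gene (DEG) also had a log2 fold change beyond 1. In these bulk libraries, fewer cells that express a gene and less RNA per cell cannot be told apart.

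Of the 10 enzymes, Shmt1 fell and Pck2 rose with LME-sEVs, and the other 8 were not called. The 2 calls stand beside 8.96% of all tested genes called in either direction. By direction, 1 enzyme was lower, beside 5.21% of all genes, and 1 higher, beside 3.75%. None of the 10 was a DEG, beside 1.28% of all genes. The groups did not overlap for 4 of the 10 (Psat1, Psph, and Shmt1 lower, Pck2 higher), beside 20.3% of all genes. The median log2 fold change of the 10 was -0.15, and that of all tested genes was 0.0095, with quartiles of -0.16 and 0.20. With scaling by library size only, 465 genes were called lower and 614 higher, against 658 and 473 with TMM, while 7 of the 10 enzymes kept a negative estimate under both.

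The promoter sequences of the called pair are shown because their RNA moved in opposite directions. RefSeq gives a window for 9 of the 10 enzymes on GRCm38.p6 (not for Aldh1l2), and the 250 bases before the transcription start are printed on the strand of the gene. Capitals mark the core of the C/EBP-ATF response element, TGATGNAA, read on either strand. That of Shmt1 spans chr11:60811266-60811515 on the minus strand, and that of Pck2 chr14:55540016-55540265 on the plus strand. GENCODE vM21 places the start of Shmt1 further upstream, at 60811718, so the RefSeq window of Shmt1 lies within the GENCODE gene, whereas both annotations give the same start for Pck2.
Shmt1: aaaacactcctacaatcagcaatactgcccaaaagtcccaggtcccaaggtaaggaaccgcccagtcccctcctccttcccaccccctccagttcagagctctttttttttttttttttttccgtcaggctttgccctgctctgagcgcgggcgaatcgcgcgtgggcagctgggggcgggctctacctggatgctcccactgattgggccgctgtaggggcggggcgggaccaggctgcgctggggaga
Pck2: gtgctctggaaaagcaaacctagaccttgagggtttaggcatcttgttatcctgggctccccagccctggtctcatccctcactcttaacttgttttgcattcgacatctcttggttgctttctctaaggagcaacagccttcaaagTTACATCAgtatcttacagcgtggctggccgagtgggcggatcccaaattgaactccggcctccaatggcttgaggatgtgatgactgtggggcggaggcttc

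The core was found in the window of Pck2, from 103 to 96 bases before the start and on the strand opposite to the gene, and in none of the other 8 windows of the enzymes. It was present in 3.97% of the 32851 promoter windows of 300 bases. The E-box CACGTG was in none of the 9 windows and in 7.15% of all windows. A match is a run of letters and not a bound site, and its absence says nothing beyond these windows.

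Shmt1 encodes the cytosolic serine hydroxymethyltransferase and lies on chromosome 11 of GRCm38 from 60788104 to 60811718 (GENCODE vM21, as for all genes here). It was at 75.2, 74.0, 79.5, and 72.6 CPM in HCME-sEV libraries 1 to 4 and at 57.0, 56.6, and 62.2 CPM in LME-sEV libraries 1 to 3. Every LME-sEV library was below every HCME-sEV library. The means were 75.3 ± 2.96 CPM (SD, n = 4) and 58.6 ± 3.13 CPM (SD, n = 3). This is a log2 fold change of -0.36 with a standard error of 0.091 (edgeR, FDR = 0.0165), or -22.0%. The call was lost without LME-sEV library 1 (FDR = 0.0655, same edgeR test) or LME-sEV library 2 (FDR = 0.0909), with a log2 fold change of -0.33 in both. The gene ends in a stretch shared with Smcr8 on the opposite strand, and counting is not stated to use the strand. Smcr8 itself had means of 21.0 CPM with HCME-sEVs and 19.4 CPM with LME-sEVs, with SDs of 1.15 and 1.57 CPM, and was not called (FDR = 0.685, edgeR).

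Pck2 encodes the mitochondrial phosphoenolpyruvate carboxykinase, which turns oxaloacetate into phosphoenolpyruvate from which serine can also be made, and it lies on chromosome 14 from 55540266 to 55551242. It was at 39.3, 40.0, 38.4, and 34.5 CPM in HCME-sEV libraries 1 to 4 and at 47.9, 48.8, and 47.5 CPM in LME-sEV libraries 1 to 3. Every LME-sEV library was above every HCME-sEV library, and the LME-sEV libraries lay close together, with an SD of 0.647 CPM around 48.1 CPM. This is a log2 fold change of 0.34 with a standard error of 0.101 (edgeR, FDR = 0.0410), or a rise of 26.4%. This call was near the threshold. It was lost in 9 of 15 other settings, in which the FDR ran up to 0.144 (edgeR or DESeq2), among them 6 of 7 with a library omitted; only without HCME-sEV library 1 was it kept. Pck1, the cytosolic counterpart, was under the minimum on counts.

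The 3 enzymes of serine synthesis were not called. Phgdh, the dehydrogenase that starts the pathway, lies on chromosome 3 from 98313170 to 98339990. It was at 76.9, 77.5, 66.2, and 80.1 CPM with HCME-sEVs and at 72.4, 83.8, and 81.8 CPM with LME-sEVs, so that the groups overlapped. Its log2 fold change was 0.080 with a 95% interval from -0.12 to 0.28 (FDR = 0.679, edgeR).

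Psat1, the phosphoserine aminotransferase on chromosome 19 (15904678 to 15947337), was at 429, 384, 370, and 367 CPM with HCME-sEVs and at 343, 334, and 346 CPM with LME-sEVs. The groups did not overlap, with HCME-sEV library 1 the highest. The log2 fold change of -0.18 (95% interval from -0.34 to -0.025) did not pass the correction (FDR = 0.148, edgeR).

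Psph, the phosphatase that releases serine, lies on chromosome 5 from 129765558 to 129787449. It was at 111, 124, 127, and 110 CPM with HCME-sEVs and at 103, 106, and 107 CPM with LME-sEVs. The groups were separate by a narrow margin, with a log2 fold change of -0.16 (95% interval from -0.33 to 0.018, FDR = 0.279, edgeR). Psph shares exon sequence with Cct6a of the opposite strand, away from its 3′ end. Cct6a, a subunit of a cytosolic chaperonin, was itself called lower, at 451, 485, 445, and 435 CPM with HCME-sEVs and 370, 337, and 368 CPM with LME-sEVs (log2 fold change -0.34, FDR = 0.00661, edgeR). The part of Cct6a in the lower values of Psph was not tested, since counting is not stated to use the strand. Mthfd1 and Pck2 share exons in the same way with Gm47525 and Gm10876, which had at most 2 counts and 1 count in a library.

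**Figure D1:**
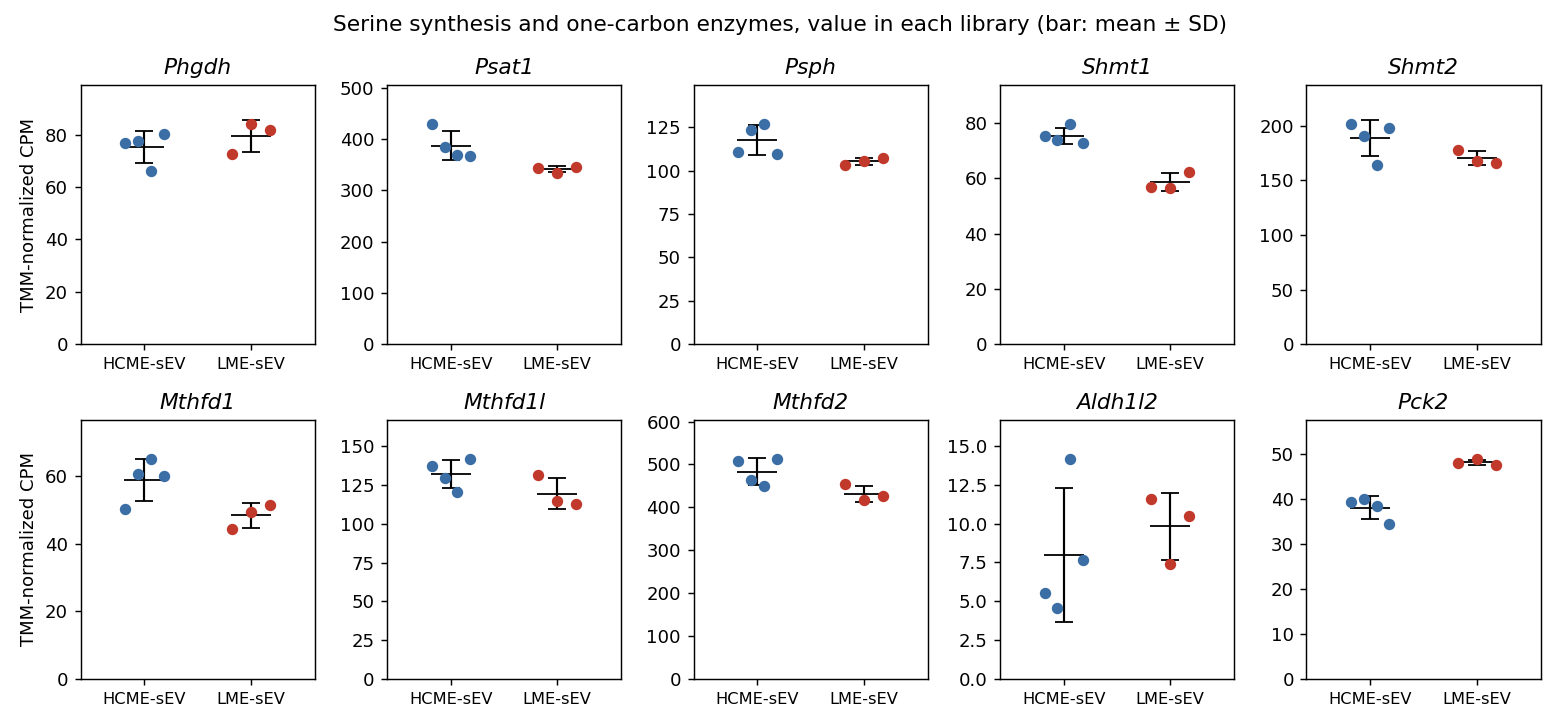
TMM-normalized CPM (vertical axis, from 0) of the 10 enzymes in each library, HCME-sEV libraries (n = 4) in blue and LME-sEV libraries (n = 3) in red, with the mean and SD as black bars. The groups are separate for Psat1, Psph, Shmt1, and Pck2, the LME-sEV libraries of Pck2 lying at 47.5 to 48.8 CPM, above the highest HCME-sEV library at 40.0 CPM.

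Of the mitochondrial folate enzymes, none was called. Shmt2, the mitochondrial serine hydroxymethyltransferase on chromosome 10 (127517123 to 127522444), was at 201, 190, 164, and 198 CPM with HCME-sEVs and at 178, 168, and 166 CPM with LME-sEVs. HCME-sEV library 3 was the lowest of all 7, and the log2 fold change was -0.15 (95% interval from -0.32 to 0.029, FDR = 0.320, edgeR). Its 3′ end meets Ndufa4l2 on the opposite strand, which had 0 counts in all libraries. Mthfd2, which oxidizes methylene-tetrahydrofolate in mitochondria and is low in most resting adult tissues, lies on chromosome 6 from 83305691 to 83325908.

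Mthfd2 was at 508, 463, 449, and 512 CPM with HCME-sEVs and at 453, 417, and 425 CPM with LME-sEVs. LME-sEV library 1 was above HCME-sEV library 3, and the log2 fold change of -0.16 (standard error 0.076) did not pass (FDR = 0.207, edgeR). Mthfd1l on chromosome 10 (3973118 to 4167081), the mitochondrial synthetase that frees formate, was at 137, 130, 121, and 142 CPM with HCME-sEVs and at 131, 115, and 113 CPM with LME-sEVs. The groups overlapped here too, with a log2 fold change of -0.15 (FDR = 0.322, edgeR).

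Aldh1l2, the mitochondrial formyl-tetrahydrofolate dehydrogenase on chromosome 10 (83487450 to 83534140), was the least deeply counted of the 10, with 18 to 54 counts in a library. It was at 5.54, 4.56, 14.1, and 7.68 CPM with HCME-sEVs and at 11.6, 7.42, and 10.5 CPM with LME-sEVs. HCME-sEV library 3 was the highest of all 7. The log2 fold change of 0.31 had a 95% interval from -0.29 to 0.91 (FDR = 0.578, edgeR), an interval that holds both no change and a rise of the size seen for Pck2. Without HCME-sEV library 3 the estimate was 0.71, still not called (FDR = 0.0774, edgeR). The 3′ end of Aldh1l2 overlaps D10Wsu102e on the opposite strand, so the counts of Aldh1l2 are uncertain. D10Wsu102e was at higher means, 44.4 CPM with HCME-sEVs and 48.3 CPM with LME-sEVs. It was not called (log2 fold change 0.11, FDR = 0.589, edgeR).

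Mthfd1, the cytosolic enzyme that rebuilds methylene-tetrahydrofolate from formate, lies on chromosome 12 from 76255298 to 76319803. It was at 50.4, 60.6, 65.1, and 60.1 CPM with HCME-sEVs and at 44.4, 49.4, and 51.6 CPM with LME-sEVs. HCME-sEV library 1 lay within the range of the LME-sEV group. The log2 fold change of -0.28 (standard error 0.106) did not pass over all libraries (FDR = 0.112, edgeR) and passed without HCME-sEV library 1 (log2 fold change -0.35, FDR = 0.0387, edgeR).

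**Figure D2:**
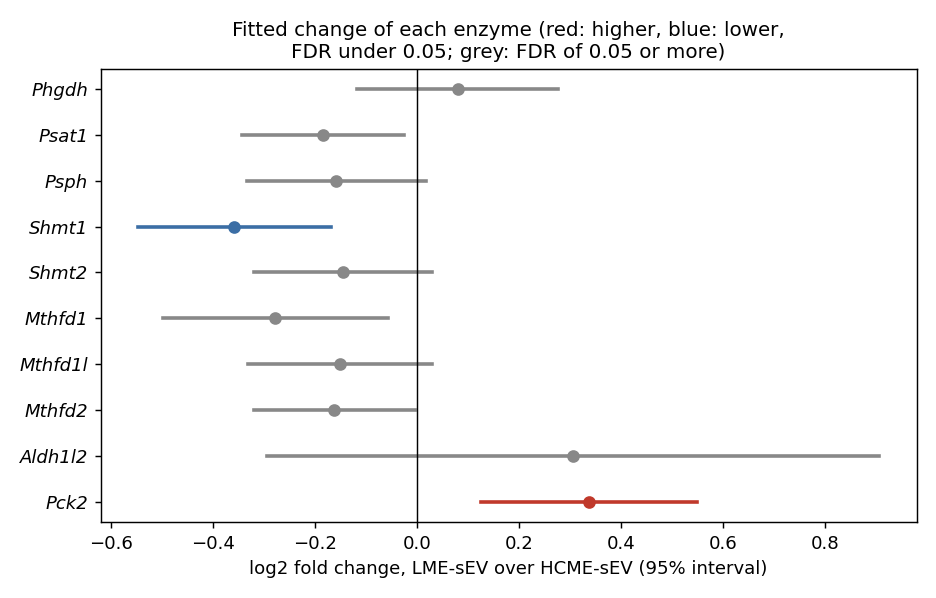
Fitted log2 fold change (horizontal axis, LME-sEV over HCME-sEV) of each enzyme as a point with its 95% interval, in blue or red where the FDR was under 0.05 and in grey otherwise. Shmt1 lies at -0.36 and Pck2 at 0.34, and 7 of the 10 points are below 0.

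The libraries of the HCME-sEV group differed among themselves in both directions. HCME-sEV library 3 was the lowest of its group for Phgdh, Shmt2, Mthfd1l, and Mthfd2 and the highest for Psph, Shmt1, Mthfd1, and Aldh1l2. This order was noticed after the values were seen and was not tested.

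To ask whether related enzymes moved apart, the log2 ratio of paired genes was taken within each library: the mitochondrial to the cytosolic enzyme for Shmt2 and Shmt1 and for Mthfd1l and Mthfd1, and the mitochondrial relatives Mthfd2 and Mthfd2l. The 3 ratios were compared by a two-sided exact permutation test, whose smallest possible p is 0.0286, with Benjamini-Hochberg adjustment over the 3. The log2 ratio of Shmt2 to Shmt1 was 1.31 ± 0.18 (SD, n = 4) with HCME-sEVs and 1.53 ± 0.11 (SD, n = 3) with LME-sEVs, a difference of 0.22 (exact permutation p = 0.171, adjusted p = 0.257). The libraries overlapped, with HCME-sEV library 4 at 1.44 and LME-sEV library 3 at 1.41, so that Shmt1 was not shown to differ from Shmt2 in its response.

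For Mthfd1l to Mthfd1 the log2 ratio was 1.16 ± 0.23 (SD, n = 4) and 1.29 ± 0.23 (SD, n = 3), a difference of 0.13 (exact permutation p = 0.429, adjusted p = 0.429). Mthfd2l, the mitochondrial relative of Mthfd2, was counted less deeply and went the other way. Mthfd2l was at 4.82, 6.59, 6.13, and 3.96 CPM with HCME-sEVs and at 7.80, 9.89, and 7.56 CPM with LME-sEVs. All 3 LME-sEV libraries were above the HCME-sEV libraries, with a log2 fold change of 0.65 that did not pass (FDR = 0.0968, edgeR). The log2 ratio of Mthfd2 to Mthfd2l was 6.39 ± 0.40 (SD, n = 4) and 5.61 ± 0.24 (SD, n = 3), a difference of -0.78 without overlap (exact permutation p = 0.0571, adjusted p = 0.171).

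**Figure D3:**
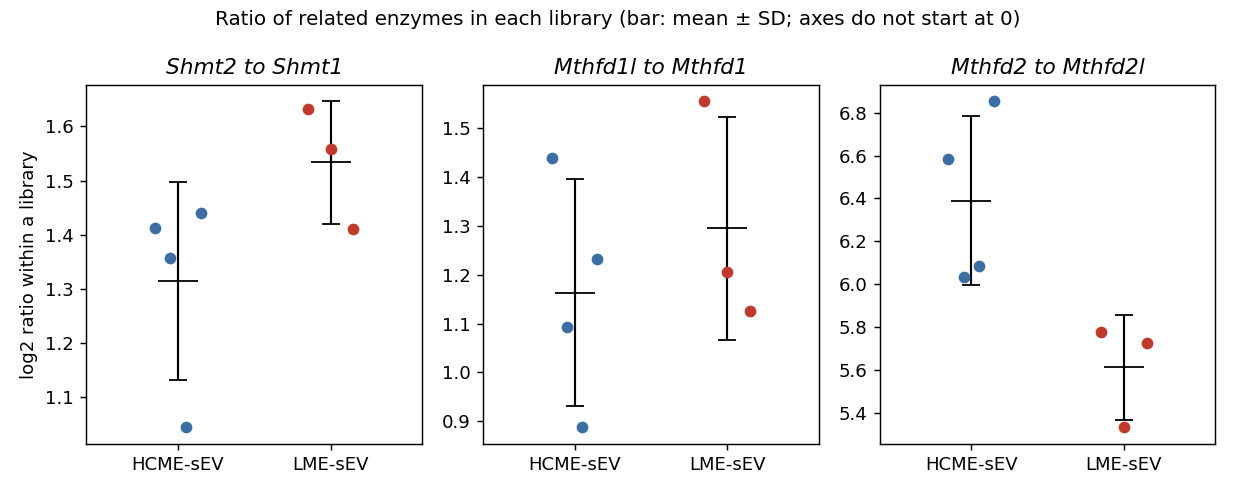
Log2 ratio (vertical axes, which do not start at 0) of the paired enzymes within each library, HCME-sEV (n = 4) in blue and LME-sEV (n = 3) in red, with mean and SD. The groups overlap for Shmt2 to Shmt1 and for Mthfd1l to Mthfd1 and are separate for Mthfd2 to Mthfd2l, from 6.04 upward with HCME-sEVs and up to 5.78 with LME-sEVs.

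Of 38 other genes of folate, glycine, methionine, and serine use, 33 were tested, 4 were called lower, 1 higher, and 28 were not called. Over all tested genes, 5.21% were called lower and 3.75% higher. The median log2 fold change of the 33 was -0.16, beside 0.0095 over all tested genes. Mat2a, which makes S-adenosylmethionine from methionine, was at 608, 508, 459, and 487 CPM with HCME-sEVs and at 412, 358, and 356 CPM with LME-sEVs. It fell by 0.46 on the log2 scale (standard error 0.092, FDR = 0.00373, edgeR), and the groups did not overlap. Slc19a1, the carrier that brings reduced folate into the cell, was at 76.9, 79.3, 70.4, and 69.4 CPM against 60.0, 56.9, and 49.4 CPM, with a log2 fold change of -0.42 (FDR = 0.0106, edgeR), which was lost without LME-sEV library 3 (FDR = 0.0968). The groups were again separate.

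Atic, a folate-dependent enzyme that completes the purine ring, was at 249, 235, 205, and 226 CPM with HCME-sEVs and at 173, 176, and 176 CPM with LME-sEVs (log2 fold change -0.39, FDR = 0.00490, edgeR). Mtap, which returns methylthioadenosine to methionine and adenine, was at 155, 167, 147, and 149 CPM against 131, 108, and 115 CPM, with a log2 fold change of -0.39 (FDR = 0.00746, edgeR). It was not called without LME-sEV library 2 (FDR = 0.0728) or 3 (FDR = 0.0528). The one gene called higher was Serinc3, a membrane protein named for a role in bringing serine into lipids, at 440, 484, 492, and 483 CPM against 584, 635, and 644 CPM (log2 fold change 0.39, FDR = 0.00240, edgeR). Without LME-sEV library 3 the calls in this list numbered 3 in place of 5.

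The list of 22 genes of the ATF4 response held Atf4 itself, its partners, kinases upstream of it, target genes, and Myc. All were tested, 5 were called lower and 1 higher, and 2 were DEG. Over all tested genes these shares were 5.21%, 3.75%, and 1.28%. The median log2 fold change of the 22 was -0.26, beside 0.0095 over all tested genes. Atf4 was at 627, 546, 485, and 571 CPM with HCME-sEVs and at 463, 386, and 378 CPM with LME-sEVs. The groups did not overlap, and the log2 fold change was -0.45 with a standard error of 0.091 (FDR = 0.00430, edgeR); it was called in all 15 other settings. Atf4 is also controlled at translation, which these libraries do not measure.

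Atf3, a stress-induced partner of ATF4, was at 16.6, 19.0, 18.7, and 17.2 CPM against 6.995, 7.87, and 11.4 CPM (log2 fold change -0.997, just short of the bound for a DEG, FDR = 0.00174, edgeR). Atf5, a related factor, was at 10.8, 7.86, 12.3, and 11.6 CPM against 4.84, 4.27, and 6.20 CPM (log2 fold change -1.04, FDR = 0.00723, edgeR), and its call was lost without LME-sEV library 2 (FDR = 0.0592). Trib3, a pseudokinase that ATF4 induces, fell, with 25.8, 22.8, 24.8, and 24.4 CPM against 20.2, 16.2, and 16.1 CPM (log2 fold change -0.50, FDR = 0.0268, edgeR). Its call was lost in 5 of 15 other settings, among them those without HCME-sEV library 1 or 4 or LME-sEV library 2 or 3.

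Nupr1, a small stress-induced nuclear protein, was at 2.65, 4.05, 2.93, and 2.56 CPM against 1.61, 1.12, and 0.776 CPM, and its log2 fold change of -1.40 (FDR = 0.0468, edgeR) was called in 0 of 7 settings with a library omitted. Eif2ak3, the kinase PERK that acts above ATF4 in endoplasmic reticulum stress, rose, with 14.7, 21.0, 24.5, and 17.5 CPM against 27.98, 29.7, and 33.5 CPM (log2 fold change 0.66, FDR = 0.00929, edgeR). This call was lost without LME-sEV library 3 (FDR = 0.0747). Without LME-sEV library 2 the calls in the list numbered 3 in place of 6. Among the called genes of both lists, Mat2a, Serinc3, Atf5, and Eif2ak3 share exon sequence with genes of the opposite strand, away from their 3′ ends. Of those partners, Particl (Mat2a), Il4i1, and Nup62 (both Atf5) were tested and not called (FDR from 0.112 to 0.387, edgeR), and the partners of Serinc3 and Eif2ak3 were under the minimum on counts. The log2 fold changes of Particl, Il4i1, and Nup62 were -0.81, -1.32, and -0.23, with the sign of Mat2a and Atf5. Nup62 had means of 174 CPM with HCME-sEVs and 149 CPM with LME-sEVs. The part of these partners in the values of Mat2a and Atf5 was not tested.

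Asparagine synthetase (Asns), a textbook ATF4 target, stood just outside the threshold with the sign of Pck2, at 77.3, 78.8, 84.0, and 71.5 CPM with HCME-sEVs and 95.2, 91.5, and 95.8 CPM with LME-sEVs (log2 fold change 0.27, FDR = 0.0520, edgeR). It was singled out after its values were seen. Slc7a5 (log2 fold change -0.36, FDR = 0.0529, edgeR) and Slc3a2 (log2 fold change -0.28, FDR = 0.0597, edgeR) of the same list also stood just outside the threshold, with the opposite sign. Myc, a factor that acts on many genes of growth, was at 36.1, 107, 105, and 75.9 CPM with HCME-sEVs and at 60.5, 83.6, and 93.8 CPM with LME-sEVs. The groups overlapped widely, and the log2 fold change of -0.014 (FDR = 0.981, edgeR) changed sign with the scaling.

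**Figure D4:**
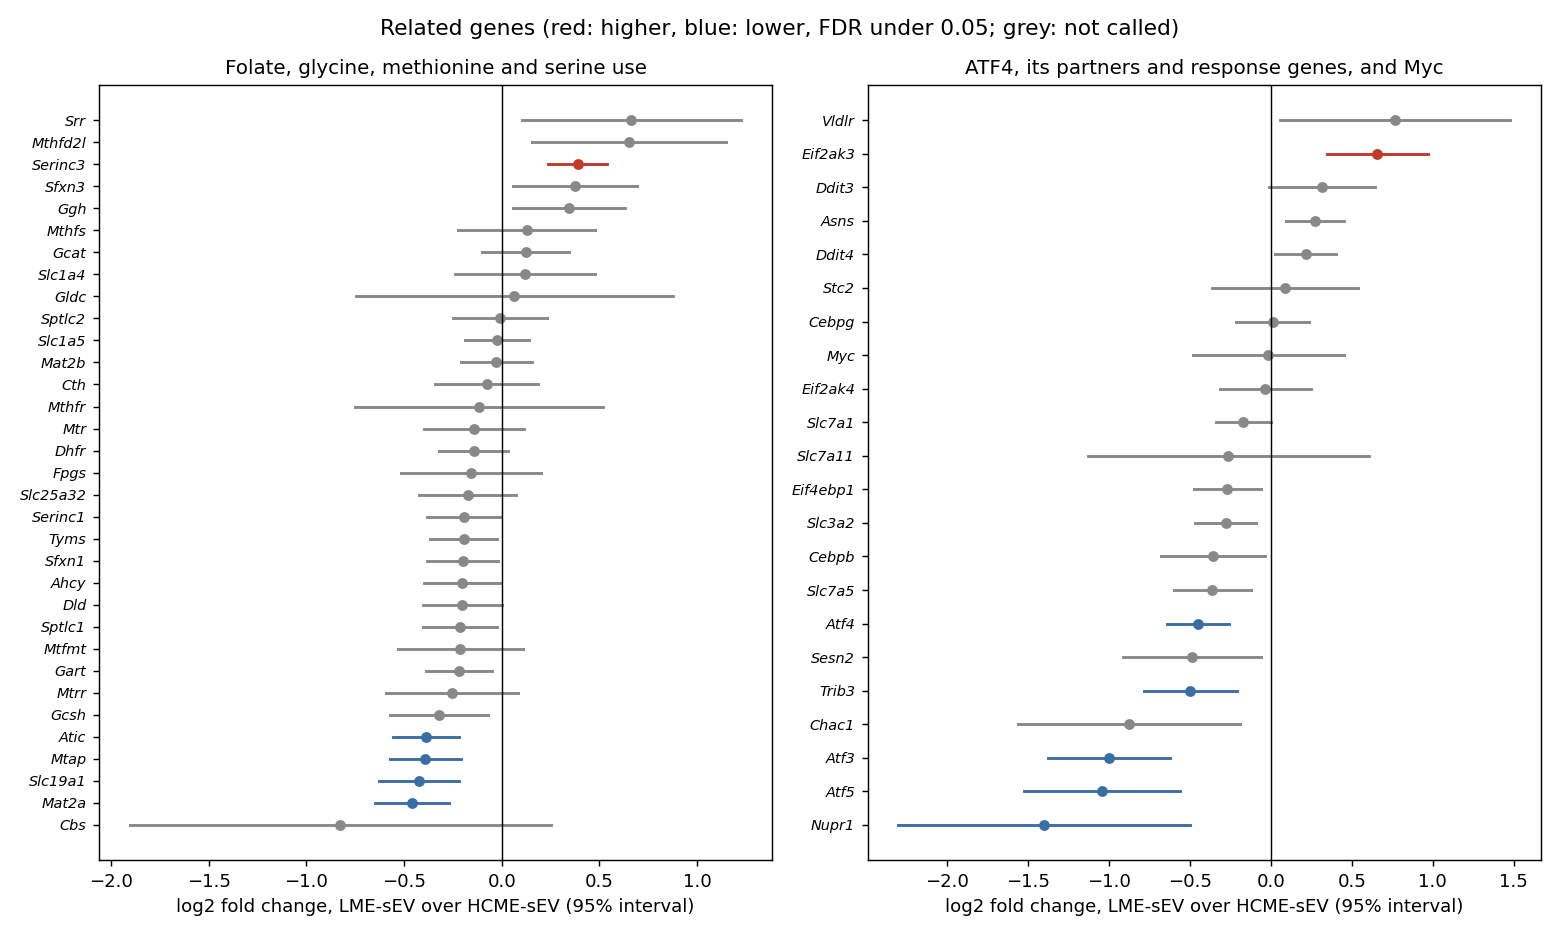
Fitted log2 fold change (horizontal axes, LME-sEV over HCME-sEV) with 95% intervals for 33 genes of folate, glycine, methionine, and serine use (left) and 22 genes of the ATF4 response, Myc included (right), in blue or red where the FDR was under 0.05. Mat2a, Slc19a1, Mtap, and Atic lie left of 0 and Serinc3 right of it, and Atf4 lies at -0.45.

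The core TGATGNAA of the Pck2 window was found in those of 7 of the 19 genes of the ATF4 list that have a RefSeq window, and in 1 of 30 of the folate and methionine list (Slc1a4). The sites of genes discussed above are set side by side because their RNA moved both ways: Pck2 rose, Atf3, Trib3, and Nupr1 fell, and Asns was not called. The calls of Pck2, Trib3, and Nupr1 were each lost in some of the other settings, as given above. Each is shown with 10 bases on either side, in the direction in which the core reads as in the motif, with the core in capitals. They lie at chr14:55540153-55540180 on the minus strand (Pck2), chr6:7693215-7693242 on the minus strand (Asns), chr1:191183426-191183453 on the plus strand (Atf3), chr2:152344029-152344056 on the plus strand (Trib3), and chr7:126625563-126625590 on the plus strand (Nupr1) of GRCm38.p6. The core of Trib3 lies after the transcription start, and the cores of the other genes shown lie before it.
Pck2: tgtaagatacTGATGTAActttgaaggc
Asns: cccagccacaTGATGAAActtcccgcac
Atf3: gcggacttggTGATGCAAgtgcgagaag
Trib3: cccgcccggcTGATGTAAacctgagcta
Nupr1: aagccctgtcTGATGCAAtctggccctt

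Over the 7 libraries, the tested genes most like the mean log2 CPM of the 10 enzymes were Eapp (Pearson r = 0.969), B4galt3 (0.954), Gm4285 (0.951), Gm21046 (0.949), and Fem1a (0.948). They were picked as the highest among all tested genes over few libraries, which also differ by treatment, and none of the 5 was called (FDR from 0.228 to 0.556, edgeR).

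Markers of the cells were read beside these results. The defining genes of CD8+ T cells were present, with 341 to 376 CPM of Cd8a in the HCME-sEV libraries and 401 to 435 CPM in the LME-sEV libraries, and Cd4 had at most 3 counts in a library. Of 6 T-cell genes, Cd3e was called higher with LME-sEVs (log2 fold change 0.36, FDR = 0.0106, edgeR). Of 8 proliferation genes, Pcna was called lower (log2 fold change -0.28, FDR = 0.0234, edgeR), while the estimate of Mki67 was positive (0.039, FDR = 0.818, edgeR). Their summed level was 3608 to 3901 CPM with HCME-sEVs and 3269 to 3517 CPM with LME-sEVs. Top2a, which was not called, was the largest part of that sum, with means of 1782 and 1573 CPM. Genes of erythroid cells and platelets summed to 71.8 to 175 CPM against 150 to 197 CPM. Hba-a1, Pf4, and Ppbp, 3 of 6 tested, were called higher, while the estimate of Hbb-bs was negative. Genes of basophils, mast cells, and eosinophils summed to 5.54 to 31.7 CPM against 21.1 to 39.3 CPM. Mcpt8 and Prg2, 2 of 5 tested, were called higher, while the estimate of Cpa3 was negative. Prg2 had at most 2 counts in an HCME-sEV library and 18 to 41 in the LME-sEV libraries (log2 fold change 3.92, FDR = 0.000165, edgeR). The shares called over all tested genes were 5.21% lower and 3.75% higher. The sums were 5.07 to 8.11 CPM and 4.84 to 6.97 CPM for 6 B-cell genes, of which 2 were tested, and 1.6004 to 4.10 CPM and 4.65 to 9.42 CPM for 8 myeloid genes, of which 1 was tested. None of these tested genes was called, and 0 markers were at 0 in all libraries. Among the untested myeloid genes, Itgam had at most 1 count in an HCME-sEV library and 6 to 8 in the LME-sEV libraries. The means of Cd14 and Csf1r were slightly lower with LME-sEVs. Whether these cells or a difference in proliferation had a part in the results was not tested.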

How the data were processed

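CD8+ T cells exposed to HCME-sEVs (4 libraries) or LME-sEVs (3 libraries) were grouped by GEO's labels; the study's own text gives the library numbers the other way round. Per the submitters' processing notes, the authors trimmed the QuantSeq 3′ reads with cutadapt 2.10, aligned them with STAR 2.5.3a to GRCm38 (mm10), collapsed molecular identifiers with UMI-tools 1.0.0, and counted genes with featureCounts (Subread 2.0.0). The annotation release and strand setting are not given in the sources used here. The deposited values are raw counts per gene, so a gene sharing exons with one on the opposite strand is uncertain.

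Genes whose counts averaged under 5 over the libraries were dropped. TMM scaling was followed by the quasi-likelihood test of edgeR 4.0.16 in R 4.3.3 (glmQLFit, glmQLFTest), with no covariate and adjustment over all tested genes. The procedure was tested on simulated data. Recovery was required there only for changes larger than those of Shmt1 and Pck2. Ratios used log2 CPM with a prior count of 2 and a two-sided exact permutation test. DESeq2 1.42.0 and limma 3.58.1 served as alternatives, with other filters and scalings, a replicate block, and each library left out in turn. All pairs of replicates differed by more than sampling noise. Near-identical 3′ copies were searched for with blast 2.17.0, and none of the 10 enzymes had one. Promoters were those of RefSeq, coordinates those of GENCODE vM21.

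The text names all 10 enzymes, the called genes of each related list (at most 8), Atf4, Myc, and Mthfd2l. It also names the 5 genes most like the enzymes' mean. Asns, Slc7a5, Slc3a2, and the marker genes were added. The enzymes and lists were chosen with earlier results of these data known.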

Additional observations from a re-analysis of the deposited data

How the results depend on the processing

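The median log2 fold change of the 10 enzymes was negative, and 7 of the 10 estimates were below 0, in all 15 other settings. The number of the 10 called, 2 as reported, was 1 (Shmt1) with no minimum beyond 1 count, 1 (Shmt1) in the DESeq2 Wald test, and 1 (Shmt1) with a replicate block. The block can use only the libraries with numbers 1 to 3, so HCME-sEV library 4 is left out there, and the call of Pck2 was lost without that library alone (log2 fold change 0.29, FDR = 0.107, edgeR) as with the block (0.29, FDR = 0.0912). Leaving out each library in turn gave 0 to 3 of the 10 enzymes, 391 to 1305 of all tested genes, 3 to 7 of the folate, glycine, methionine, and serine-use genes, and 3 to 9 of the ATF4 response genes. The lowest counts over all genes were 391 without LME-sEV library 2, 458 without LME-sEV library 3, and 723 without HCME-sEV library 2; these fits use fewer libraries. The log2 fold change of Myc turned positive with upper quartile normalization (0.0046), library size only (0.0284), and limma-voom (0.0905), and ran from -0.26 to 0.15 with a library left out; the cause was not tested. Whether replicate numbers pair the libraries is not stated and was not settled here. The correlations of deviations between same-numbered libraries were 0.072, 0.155, and 0.027, and 1 of 3 LME-sEV libraries correlated best with its own number. With the replicate block on these 6 libraries 1440 genes were called, against 918 on the same libraries without the block and 1131 on all 7. The differences of the 3 ratios kept their sign in every setting run, but that of Mthfd1l to Mthfd1 came close to 0 in some. It was 0.0019 without LME-sEV library 1 and 0.040 without HCME-sEV library 3, against 0.13 with all 7 libraries. With a library left out the exact permutation test cannot go below p = 0.1 (3 against 3) or 0.0667 (4 against 2). Its p therefore says nothing there. Counts were low, at most 54 in a library, for Aldh1l2, Mthfd2l, Atf5, and Nupr1, which limits their precision.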
